A study of Mus musculus with 4 samples.

Results

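Hypoxia was compared with normoxia in MC38 cells that had received no IFN-γ, in 1 library of control cells under hypoxic conditions and 1 library of control cells under normoxic conditions, out of 4 libraries in the series. MC38 is a mouse colon cancer cell line, labelled as wild type, and all 4 libraries came from it. The control cells were untreated. Normoxia meant 20% oxygen and hypoxia 1.5%, and the other 2 libraries came from cells at the same oxygen levels that had received IFN-γ (in most experiments of the study a dose of 5 ng/mL over 24 h). The study made these libraries to follow signalling under IFN-γ when oxygen is low, and the control pair compares the oxygen levels without IFN-γ. The time the cells spent under hypoxic conditions before RNA was taken is not given in the sources used here. Of 27179 genes listed, the comparison covered the 11457 whose counts averaged 50 or more over the 2 control libraries, called the measured genes here.

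Each condition had 1 library, so no difference below has a replicate check. Values are counts of reads per gene and log2 ratios of hypoxia over normoxia, taken after TMM normalization with 0.5 counts added. Their 95% intervals (exact Clopper-Pearson, from the 2 counts) cover counting error only and compare these libraries, not the conditions. A gene is called raised or lowered where its ratio was at least 1.5-fold (0.58 on the log2 scale) with an interval that excludes no change. This is a rule of size and not a test. Where 2 counts are given for a gene, the library under normoxic conditions comes first. The libraries with IFN-γ share no library with the control pair, and their values are set beside it; they are not replicates of it, because IFN-γ differs. Fewer cells in a state and less RNA per cell cannot be told apart in bulk RNA.

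When oxygen is ample, the prolyl hydroxylases (PHD enzymes, encoded by the Egln genes) mark the HIF alpha subunits for destruction by the von Hippel-Lindau ubiquitin ligase. When oxygen is low this marking slows, HIF alpha accumulates as protein, pairs with ARNT and binds DNA at short elements that hold ACGTG or GCGTG. Known targets include the glucose transporters and glycolytic enzymes, the kinase that switches off pyruvate dehydrogenase, mitophagy receptors and carbonic anhydrase IX. Vascular growth factors, collagen hydroxylases and several of the PHD enzymes themselves are targets too.

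Promoters of 5 genes are shown so that these letters can be read in place. For each of the lists of oxygen sensors, glycolysis, mitophagy, carbonic anhydrases and angiogenic factors, the member with the highest log2 ratio that had an entry in the promoter table was taken. The sequences are the 250 bases before the RefSeq gene start (GRCm38.p6, the assembly behind mm10), 5′ to 3′ on the gene's strand, with each match to either motif in capitals. Motif ACGTG reads as CACGT when it lies on the opposite strand. The other motif, GCGTG, reads there as CACGC. Overlapping matches are counted separately.
Egln1: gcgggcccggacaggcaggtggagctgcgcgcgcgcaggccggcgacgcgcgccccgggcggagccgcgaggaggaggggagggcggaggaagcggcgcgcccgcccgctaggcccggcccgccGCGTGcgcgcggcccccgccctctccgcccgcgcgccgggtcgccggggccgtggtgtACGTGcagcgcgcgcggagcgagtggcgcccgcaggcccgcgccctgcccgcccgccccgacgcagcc
Slc2a1: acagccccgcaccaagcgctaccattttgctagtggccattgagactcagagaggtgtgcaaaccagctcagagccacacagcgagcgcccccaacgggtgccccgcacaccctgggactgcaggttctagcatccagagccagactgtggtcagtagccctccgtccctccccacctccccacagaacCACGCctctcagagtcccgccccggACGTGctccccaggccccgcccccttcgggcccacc
Bnip3: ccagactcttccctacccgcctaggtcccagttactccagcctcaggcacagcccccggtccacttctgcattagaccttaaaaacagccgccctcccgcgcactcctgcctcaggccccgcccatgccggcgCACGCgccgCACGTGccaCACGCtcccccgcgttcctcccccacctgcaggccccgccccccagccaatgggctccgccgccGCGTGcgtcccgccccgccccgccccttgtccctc
Car9: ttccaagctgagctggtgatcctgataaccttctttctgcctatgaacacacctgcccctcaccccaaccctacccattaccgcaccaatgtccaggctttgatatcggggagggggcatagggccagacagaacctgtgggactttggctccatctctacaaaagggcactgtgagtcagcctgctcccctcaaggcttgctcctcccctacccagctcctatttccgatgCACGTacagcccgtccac
Fgf11: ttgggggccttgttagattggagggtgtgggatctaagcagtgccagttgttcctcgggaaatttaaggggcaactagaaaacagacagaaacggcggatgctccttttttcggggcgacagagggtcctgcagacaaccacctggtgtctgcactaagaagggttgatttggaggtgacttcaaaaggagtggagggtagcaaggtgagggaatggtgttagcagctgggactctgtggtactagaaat
The Egln1 window (chr8:124949255-124949504, minus strand) held 2 matches, starting 126 and 68 bases before the gene start. The Slc2a1 window (chr4:119108495-119108744, plus strand) also held 2, at 61 and 36 bases before the start. The Bnip3 window (chr7:138909507-138909756, minus strand) held 5, among them a CACGTG palindrome that gives 2 overlapping matches. In the Car9 window (chr4:43506776-43507025, plus strand) a single CACGT lay 18 bases before the start, and the Fgf11 window (chr11:69802281-69802530, minus strand) held none. Nos2, with the highest log2 ratio of the angiogenic list, is named only.

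Over the full 300-base windows of the table, which add 50 bases after the start, ACGTG on either strand occurred in 44.3% of the raised genes that had a promoter (101 of 228) and in 30.3% of all measured genes that had one (2729 of 8995). It occurred in 20.8% of the lowered genes (10 of 48). Among genes raised at least 2-fold the share was 54.9% (28 of 51). The genes raised both without and with IFN-γ held it in 55.3% (68 of 123), those raised in the control pair only in 31.4% (33 of 105). For GCGTG the shares of raised (54.4%), lowered (54.2%) and all measured genes (58%) lay closer together. Genes raised both without and with IFN-γ held GCGTG in 61% (75 of 123), and those raised in the control pair only in 46.7% (49 of 105). Over all 32851 promoters in the table the shares were 19.6% for ACGTG and 32.4% for GCGTG. A gene with several listed starts was counted where any of its windows held the motif. A match is a description of these letters and says nothing of binding.

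Across the genome the response was small in most genes and leaned upward among the large changes. The median log2 ratio over the measured genes was 0.0037, the lower and upper quartiles were -0.11 and 0.14, and 95% of genes lay between -0.41 and 0.60. By the rule of size 307 genes were raised, 2.68% of those measured, and 80 were lowered, 0.698%. At 2-fold the numbers were 69 raised (0.602%) and 6 lowered (0.0524%). The plot of log2 ratio against level shows that the raised genes included abundant transcripts while the lowered genes were mostly of low level: the median of the mean counts was 230 for raised and 106 for lowered genes. The control libraries held 34302971 counts under normoxic and 34514248 under hypoxic conditions. At this depth 50.2% of the measured genes (5755) had an interval excluding no change, and 307 and 80 of these met the 1.5-fold rule. With so few of all genes called, a list without a call lies near this background, and nothing is read from the absence of calls alone.

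**Figure D1:**
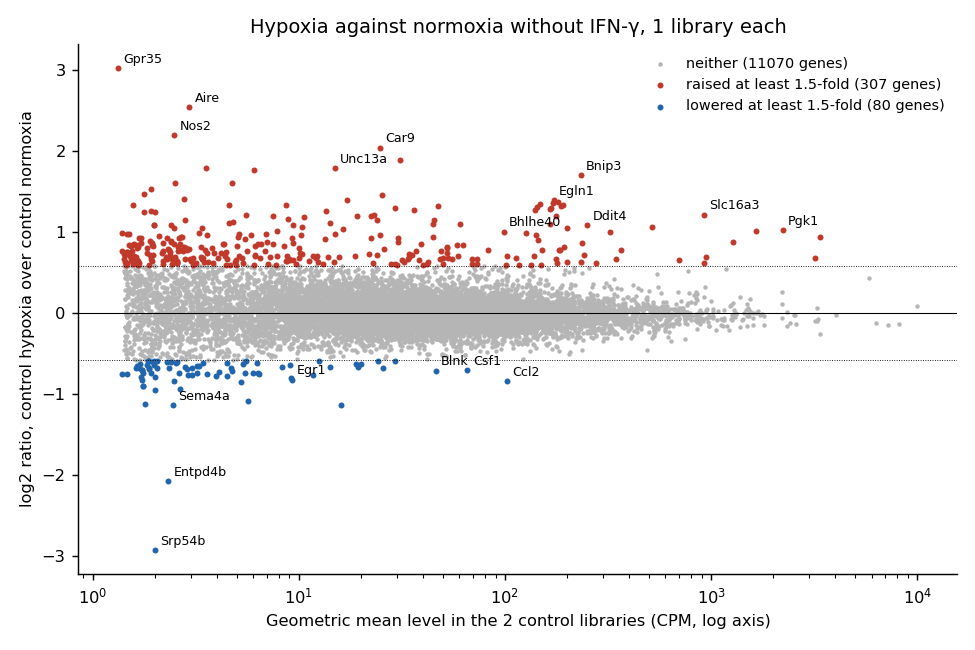
Each point is a measured gene, with the geometric mean of its level in the 2 control libraries in CPM on a log axis (horizontal) and its log2 ratio of hypoxia over normoxia without IFN-γ (vertical). The 307 raised genes are red and extend to the levels of Pgk1 and Ldha, and the 80 lowered genes are blue, with Ccl2 the farthest to the right among them; dotted lines mark 1.5-fold.

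Egln1 and Egln3, which encode oxygen sensors, were raised, whereas other genes of oxygen sensing and HIF removal (Egln2, Hif1an and Vhl) were not called. Of 18 measured members of the list of HIF subunits, sensors and regulators, 4 were raised and none was lowered, with a median log2 ratio of 0.15 against 0.0037 for all measured genes. Egln1 (gene 112405, chr8:124908587-124949254), which encodes PHD2, the main sensor in most cells, had 3690 and 9663 counts without IFN-γ and 3625 and 9329 with it. Both libraries under hypoxic conditions were higher, and the log2 ratio of the control pair was 1.39 (95% interval 1.34 to 1.45). Egln3, which encodes the inducible PHD3, had 1059 and 2344 counts (log2 ratio 1.15), whereas Egln2, for PHD1, had 1653 and 1656 (0.01). Ankrd37, a small ankyrin protein gene long known as a HIF target, had 644 and 1578 counts (log2 ratio 1.29), and Hilpda, whose product sits on lipid droplets, had 1060 and 1665 (0.65). The transcripts of HIF-1α and its partner had ratios near 0, with 5326 and 5224 counts for Hif1a (-0.03, 95% interval -0.08 to 0.03) and 2386 and 2302 for Arnt (-0.05). Vhl, the recognition subunit of the ligase that removes HIF alpha, had 1596 and 2288 counts and a log2 ratio of 0.52, just short of the 1.5-fold line. Hif1an, the asparaginyl hydroxylase that blocks HIF transactivation, had a log2 ratio of -0.06.

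Glucose handling had the highest median of all lists. Of 25 measured genes for glucose uptake, glycolysis and lactate export, 13 were raised and none was lowered, and the median log2 ratio was 0.66. Together these transcripts took 1.81% of all counts under normoxic and 2.96% under hypoxic conditions, and with IFN-γ the shares were 1.73% and 2.87%. The entry and exit of the pathway had the highest ratios: Slc2a1, the glucose transporter GLUT1, had 4117 and 10281 counts without IFN-γ and 4507 and 10833 with it, and Slc16a3, the lactate exporter MCT4, had 21073 and 48684 without and 19796 and 45561 with it. Their log2 ratios in the control pair were 1.32 (95% interval 1.27 to 1.38) and 1.21 (95% interval 1.19 to 1.23), and in both pairs the library under hypoxic conditions was the higher one. Slc16a1, for the transporter MCT1, had a log2 ratio of -0.02. Bsg, the chaperone of both lactate transporters and a gene in none of the lists, had 25755 and 39339 counts (log2 ratio 0.61).

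Most steps between glucose and lactate had a raised gene, whereas those of Gpi1, Gapdh and Pkm did not. For the first step, Hk2 had 3672 and 6827 counts (log2 ratio 0.90) and Hk1 6508 and 10667 (0.72). Gpi1, for the isomerase that follows, had a log2 ratio of 0.52 and was not called. Among the phosphofructokinase genes, Pfkl (12441 and 25898 counts, log2 ratio 1.06) and Pfkp (7887 and 15717, 1.0) were raised and Pfkm (2535 and 2770, 0.13) was not. The aldolase genes Aldoa and Aldoc had log2 ratios of 0.87 and 1.08, and Tpi1, for triose phosphate isomerase, 1.01. Pgk1, for phosphoglycerate kinase, had 54124 and 109516 counts (log2 ratio 1.02), Pgam1 19361 and 30500 (0.66) and Eno1 87278 and 139159 (0.68). These 3 genes have 54.7%, 37.1% and 28.5% of their 31-base words in common with other genes of the annotation, which leaves it uncertain where some of their reads were counted; Eno1 summed with its copy Eno1b gave 0.68. Ldha, the lactate dehydrogenase subunit that makes lactate, had 84418 and 161768 counts and a log2 ratio of 0.94 (95% interval 0.93 to 0.95), against 0.11 for Ldhb. Gapdh and Pkm, with log2 ratios of 0.23 and 0.43, stayed under the 1.5-fold line. The 4 genes for the bifunctional enzymes that set fructose bisphosphate levels, Pfkfb1 to Pfkfb4, had log2 ratios from -0.18 (Pfkfb3) to 0.04 (Pfkfb4), and none was called.

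Of the 13 measured genes at the pyruvate gate and the respiratory chain switches 3 were raised (Pdk1, Higd1a and Lonp1), and no member of the respiratory chain subunit lists was called. Pdk1, the kinase that switches off pyruvate dehydrogenase, had 4176 and 10497 counts without IFN-γ and 4127 and 9636 with it. Its log2 ratio in the control pair was 1.33 (95% interval 1.28 to 1.38), while Pdk2 (181 and 146 counts) had -0.31 and Pdk3 (2843 and 3553) 0.32. Higd1a, a respiratory supercomplex factor, had 3107 and 7482 counts (log2 ratio 1.27), and Lonp1, the mitochondrial protease, 9699 and 16527 (0.77). The pyruvate dehydrogenase genes Pdha1, Pdhb and Dlat lay between -0.04 and 0.09. Of 46 nuclear genes for respiratory chain and ATP synthase subunits none was raised or lowered, with ratios from -0.17 to 0.31 and a median of -0.02. The 12 measured mitochondrially encoded subunits had a median of -0.05 without IFN-γ and -0.27 with it, and none was called in the control pair. Among 17 enzymes of the tricarboxylic acid cycle the median was -0.09, again with no call. Ndufv3, a subunit of complex I that the list did not hold, had 1370 and 2410 counts and was raised (log2 ratio 0.82).

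Bnip3 and Bnip3l were the raised genes of the mitophagy and autophagy list, whose median log2 ratio was 0.17. Bnip3 (gene 12176, chr7:138890836-138909506), an outer membrane receptor that draws mitochondria into autophagosomes, had 4481 and 14535 counts without IFN-γ and 4459 and 14014 with it. Its log2 ratio of 1.70 (95% interval 1.65 to 1.75) was the sixth of all raised genes by the bound nearest no change. Bnip3l, its close relative also called NIX, had 3688 and 9440 counts (1.36, and 1.35 when summed with its copy Bnip3l-ps). Of their 31-base words Bnip3 and Bnip3l have 20.3% and 23.7% in common with other genes. All 16 measured members of the list were above 0 in the control pair, 10 of them with an interval above 0. Over all measured genes 5844 of 11457 were above 0, and 25.6% had an interval above 0. Fundc1, another mitophagy receptor, had 963 and 1079 counts (0.17) and was not called. Besides Bnip3 and Bnip3l the highest were the receptor gene Optn (0.49) and Pink1 (0.41), neither of them called.

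The remaining classical targets were raised in 1 or a few members per list. Car9 (gene 230099, chr4:43507026-43513729), which encodes the cell-surface enzyme carbonic anhydrase IX, had 422 and 1733 counts without IFN-γ and 324 and 1536 with it. The log2 ratio of the control pair was 2.04 (95% interval 1.89 to 2.20). No other measured member of the acid-base list was called, among them the bicarbonate transporter genes Slc4a2 (-0.02) and Slc4a7 (-0.22), and the median of the list was -0.19. Vegfa, the main vascular growth factor, had 3104 and 4975 counts without and 2792 and 4828 with IFN-γ, with log2 ratios of 0.68 and 0.79. Pgf, its placental relative, had 56 and 102 (0.86), while Vegfb and Vegfc had log2 ratios of -0.11 and -0.02. Nos2 (gene 18126, chr11:78920787-78960226), the inducible nitric oxide synthase, had 40 and 184 counts without and 292 and 1099 with IFN-γ, and a log2 ratio of 2.19 (95% interval 1.70 to 2.74) in the control pair. Fgf11, whose printed promoter held no match, had 45 and 107 counts (1.24). Apln, which encodes the vascular peptide apelin and was in no list, had 1062 and 2271 counts (1.10).

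Some genes of collagen processing and some demethylase genes were raised, 4 of 19 measured in the former list and 4 of 21 in the latter. P4ha2 and P4ha1, the catalytic subunits of collagen prolyl hydroxylase, had 3882 and 10005 counts (1.37, 95% interval 1.31 to 1.42) for the former and 5065 and 8915 (0.82, 95% interval 0.77 to 0.87) for the latter. Plod2, a lysyl hydroxylase, had 3499 and 6774 counts (0.96), whereas Plod1 and Plod3 had 0.06 and 0.18. Ero1a, which makes disulfide bonds in the endoplasmic reticulum, had 4791 and 9887 (1.05). None of the collagen genes measured was called. Most of the 21 demethylases and related JmjC proteins use 2-oxoglutarate and oxygen. Kdm1a works through a flavin and does not use 2-oxoglutarate. Of the 21, 16 were above 0, against 5844 of all 11457 measured genes, and the median was 0.25. The raised ones were the histone demethylase genes Kdm4b (1426 and 3056 counts, 1.10), Kdm5b (172 and 337, 0.97) and Kdm3a (2783 and 4539, 0.71), and Alkbh5 (7708 and 11766, 0.61), which removes methyl groups from RNA. Tet2 and Jmjd6, both at 0.53, were not called, and Tet3 was at -0.32.

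**Figure D2:**
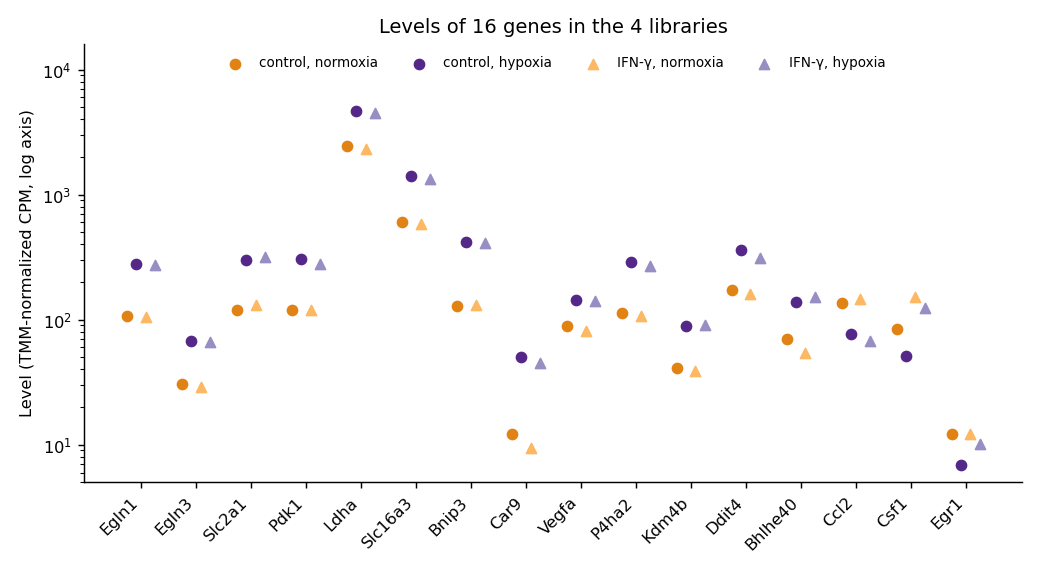
TMM-normalized CPM (log axis) of 16 genes in each of the 4 libraries, with circles for control cells and triangles for cells with IFN-γ, orange for normoxia and purple for hypoxia. For the 13 genes from Egln1 to Bhlhe40 both purple points lie above both orange points, and for Ccl2 and Egr1 both lie below; Csf1 was lower under hypoxic conditions in each pair, but its level with IFN-γ under hypoxic conditions (123 CPM) lay above that of control cells under normoxic conditions (83.9 CPM).

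Some genes of glycogen storage, lipid storage and growth restraint were raised as well. All 13 measured glycogen genes were above 0, against 5844 of all 11457 measured genes, and 3 were raised (Pgm1, Gys1 and Gbe1). Pgm1, which links glucose phosphates, had 3665 and 8904 counts (log2 ratio 1.28). Gys1, the glycogen synthase, had 3934 and 8408 (1.10), and Gbe1, the branching enzyme, 1400 and 2338 (0.74). Vldlr, a lipoprotein receptor, had 2195 and 3768 counts (0.78), and together with Hilpda it was the raised part of 19 lipid droplet and fatty acid genes. Of 34 genes of cholesterol and fatty acid synthesis none was called, with a median of 0.02, and the highest was Insig2 (0.52), a brake on sterol synthesis. Ddit4, the mTORC1 inhibitor REDD1, had 5954 and 12581 counts without IFN-γ and 5551 and 10677 with it (log2 ratios 1.08 and 0.94). Of the stress transcription factors, Atf3 had 96 and 160 counts (0.74), and Atf4 and Ddit3 had log2 ratios of 0.05 and 0.51. None of the 25 chaperone genes was called (median -0.01). Hmox1, heme oxygenase, had 4922 and 8393 counts (0.77) and was the raised gene in both the iron list (14 measured) and the NRF2 list (22 measured).

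Some clock repressors and some competitors of Myc were among the raised regulators. Bhlhe40 and Bhlhe41, repressors of the circadian loop, had 2410 and 4823 counts (log2 ratio 1.0) and 333 and 720 counts (1.11). Ciart, another clock repressor, had 613 and 1191 (0.96; 20.8% of its words are shared). The clock receptor gene Nr1d1 was lowered, with 844 and 533 counts without IFN-γ and 865 and 562 with it (-0.66, 95% interval -0.82 to -0.50), and Nr1d2 had -0.35. Mxi1 and Mxd4, which compete with Myc for Max, had 1125 and 2144 counts (0.93) and 146 and 285 counts (0.97), and Myc itself had 3278 and 2842 (-0.20). In the AP-1 and immediate early list Maff (771 and 1413 counts, 0.88), Jund (1908 and 3010, 0.66) and Fos (58 and 97, 0.74) were raised. Egr1 (425 and 240, -0.82) and Ier5 (1118 and 697, -0.68) were lowered. With IFN-γ the log2 ratio of Fos was -0.07 and that of Egr1 -0.27.

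The list of HIF targets of mixed function was compiled from knowledge of such targets, but also with earlier results of these data known. All 27 measured members were above 0, which is a description only. Over all measured genes 5844 of 11457 were above 0. Of the 27 members 15 were raised, and the median was 0.60 without IFN-γ and 0.60 with it. Selenbp1 (gene 20341, chr3:94933083-94944758), a selenium-binding methanethiol oxidase gene, had 555 and 2057 counts without and 477 and 2066 with IFN-γ (1.89 and 2.12). It shares 61.1% of its words with Selenbp2, and the sum of both also gave 1.89 in the control pair. Ak4, a mitochondrial adenylate kinase, had 3197 and 8109 counts (1.35), Fam162a, a mitochondrial protein gene, 3142 and 7769 (1.31), and Ndrg1, a stress-responsive gene of differentiation, 4062 and 9264 (1.19). Ccng2, an atypical cyclin, had 365 and 959 (1.39). The metallothionein genes Mt1 and Mt2 had log2 ratios of 0.66 and 0.63.

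**Figure D3:**
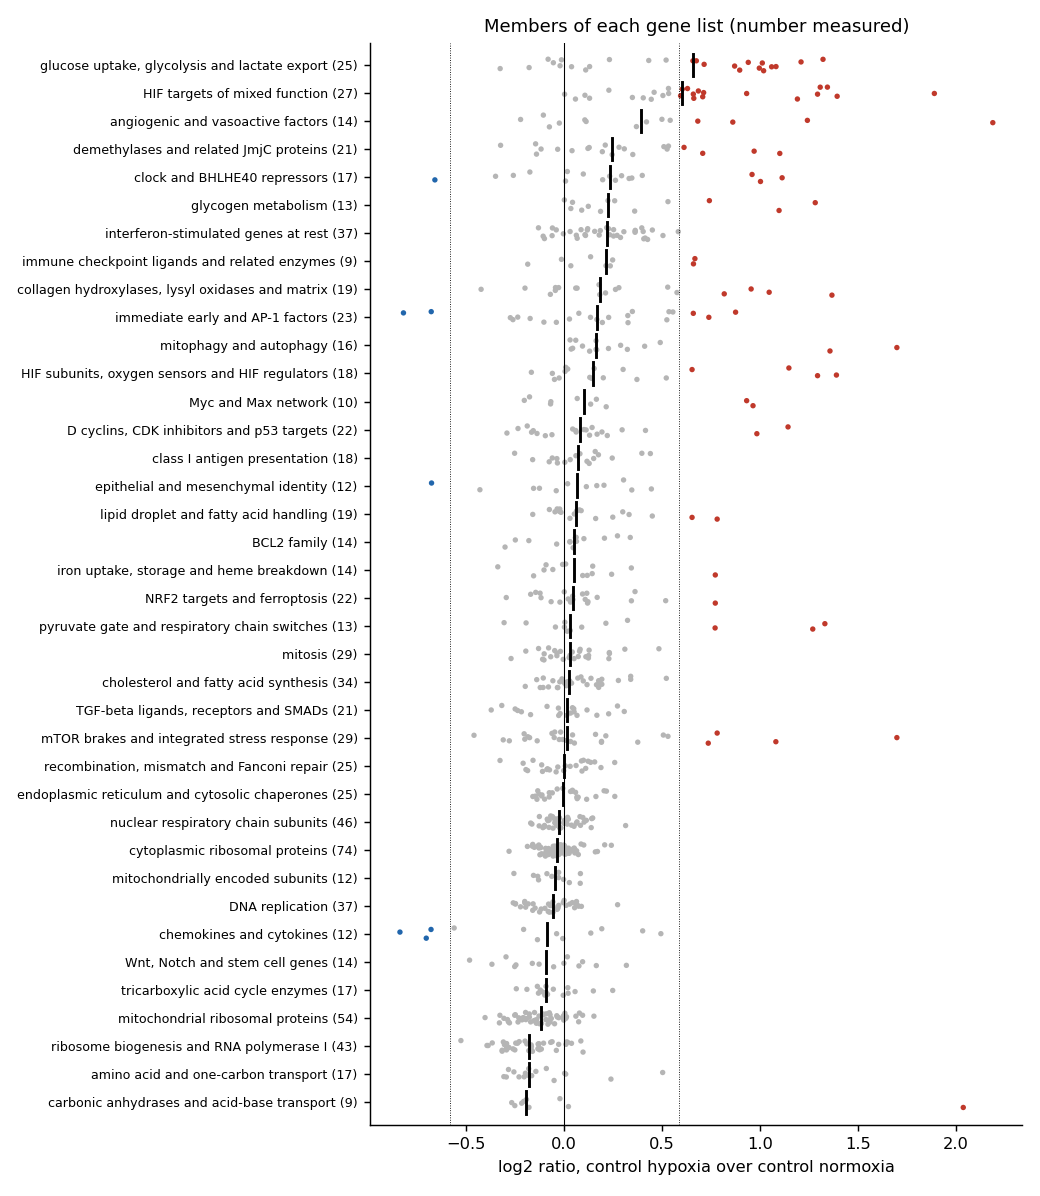
Log2 ratios of hypoxia over normoxia without IFN-γ for the measured members of 38 gene lists, ordered by their median (black bars), with raised members red, lowered members blue and dotted lines at 1.5-fold. Glycolysis (median 0.66, 13 of 25 raised) and the mixed HIF targets (0.60, 15 of 27) stand at the top, and ribosome biogenesis (-0.18, none of 43 called) lies near the bottom; some genes stand in more than 1 list.

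Over all lists together 66 of 863 measured genes were raised and 7 were lowered, against 2.68% and 0.698% of all measured genes. The lists were chosen with earlier results of these data known, so these shares are a description only. In no list were 241 raised and 73 lowered genes. Several of the most raised genes were of this kind. Gpr35 (gene 64095, chr1:92948052-92986391), a G protein-coupled receptor, had 16 and 133 counts without IFN-γ and 20 and 115 with it. Its log2 ratio in the control pair was 3.02 (95% interval 2.31 to 3.91), the highest of all raised genes, from a low level. Aire (gene 11634, chr10:78030022-78043610), known as the regulator of self-antigen expression in the thymus, had 42 and 246 counts and 29 and 188 with IFN-γ (2.54, 95% interval 2.08 to 3.06). Unc13a, a synaptic vesicle priming factor, had 279 and 961 counts (1.78), Myh7b, a myosin heavy chain gene, 114 and 386 (1.76), and Prelid2, of a family of lipid transfer proteins, 529 and 1454 (1.46). In the libraries with IFN-γ these 3 genes had log2 ratios of 1.95, 1.93 and 1.18.

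Further raised genes outside the lists were chosen after their values were seen. Bdh2, of the ketone body dehydrogenase family, had 94 and 286 counts (log2 ratio 1.6), Arrb1, which encodes beta-arrestin, 3721 and 9075 (1.29), and Espn, an actin-bundling protein gene, 1042 and 2598 (1.32). Kctd11, Mpp2 and Acap1 had log2 ratios of 1.20, 1.19 and 1.20, and all 3 were raised with IFN-γ too (1.35, 1.62 and 1.31). Tnfaip3, the NF-κB inhibitor A20, had 371 and 727 counts without IFN-γ (0.97). Foxo3, a transcription factor restrained by growth signals, had 510 and 828 (0.70). Some members lay right at the line: Ephb3, Alyref2 and Zfp982 were just inside it at 0.59, and Zfp688, Ifit3 and Marcks just outside at 0.58.

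Of the 15 genes raised most, 4 are uncertain because they share 20% or more of their words with other genes: Selenbp1, Bnip3 and Bnip3l, described above, and Gm10705. Gm10705 had 66 and 228 counts without IFN-γ and 67 and 59 with it, log2 ratios of 1.78 and -0.18. It is a pseudogene that shares 90.5% of its words with other genes, and summed with its parent Ube2l3 the log2 ratio was -0.15.

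The lowered genes had a median log2 ratio of -0.70, against 0.77 for the raised ones, and signalling genes were among the well-counted ones. Ccl2 (gene 20296, chr11:82035577-82037452), the monocyte-attracting chemokine, had 4719 and 2634 counts without IFN-γ and 5041 and 2302 with it. Both libraries under hypoxic conditions were the lower ones, and the log2 ratio of the control pair was -0.84 (95% interval -0.91 to -0.77). Csf1 (gene 12977, chr3:107741048-107760469), the macrophage growth factor, had 2907 and 1781 counts without IFN-γ and 5181 and 4222 with it, with log2 ratios of -0.70 and -0.29. Cxcl3, a neutrophil chemokine, had 103 and 64 counts (-0.68) without and 48 and 49 with IFN-γ (0.03). These were the lowered members of 12 chemokine and cytokine genes, whose median was -0.09. Ccl7, next to Ccl2 in function, had 120 and 81 counts (-0.56, not called) and a log2 ratio of -1.31 with IFN-γ. Lif had 669 and 941 counts and the highest ratio of the list (0.49).

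The other named lowered genes were spread over several functions. Blnk, an adaptor of B cell receptor signalling, had 2043 and 1247 counts (-0.71), Sema4a, a semaphorin gene, 126 and 57 (-1.14), Atoh8, a basic helix-loop-helix factor, 529 and 312 (-0.76), and Osr2, a zinc finger developmental factor, 244 and 135 (-0.85). In the libraries with IFN-γ these 4 had log2 ratios of -0.43, -0.49, -0.97 and -0.49. Naaladl1, a peptidase gene, had 92 and 42 counts (-1.12). Smpdl3b, a sphingomyelin phosphodiesterase relative, had 418 and 239 counts without and 318 and 340 with IFN-γ (-0.80 and 0.10), and Gprc5b, an orphan receptor, 127 and 66 without and 65 and 74 with it (-0.94 and 0.19). Gm10069 had 285 and 134 counts without IFN-γ and 230 and 257 with it (-1.08 and 0.16). The share of its words in other genes was not obtained. Krt8, the keratin of simple epithelia, had 90 and 56 counts and was lowered (-0.68); 32.3% of its words are shared.

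The 2 lowest ratios belonged to genes with near-identical copies. Srp54b had 193 and 25 counts without IFN-γ and 66 and 51 with it, a log2 ratio of -2.92 in the control pair. It shares 89.9% of its words with Srp54a and Srp54c. Srp54a moved the other way, with 126 and 291 counts, and the sum of the 3 genes had 682 and 819 counts (0.27). Entpd4b (166 and 39 counts, -2.07) shares all of its words with Entpd4, and their sum had 168 and 107 counts (-0.65, 95% interval -1.01 to -0.29) without IFN-γ and 58 in each library with it. The ratios of the single copies are therefore uncertain.

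No gene of the protein synthesis lists was called, and most members of each list lay below 0. Of 43 ribosome biogenesis and RNA polymerase I genes 37 were below 0, 35 of them with an interval wholly below 0, and 1 had an interval wholly above 0. Over all measured genes the shares of such intervals were 24.6% below and 25.6% above 0. The median was -0.18 without and -0.28 with IFN-γ. The lowest was Grwd1 with 2144 and 1485 counts (-0.53, 95% interval -0.62 to -0.43), a ribosome assembly factor gene, and Polr1b, the second subunit of RNA polymerase I, had 4580 and 3545 (-0.37). Among 54 mitochondrial ribosomal protein genes 46 were below 0 (median -0.12), 31 with an interval below 0 and 1 with an interval above it. Among 74 cytoplasmic ones 52 were below 0 (median -0.04), 44 with an interval below 0, while 22 were above 0, 14 of them with an interval above it. Of 17 genes for amino acid transport and one-carbon and nucleotide synthesis 13 were below 0, each with an interval below 0, and 2 had an interval above it (median -0.18). The 13 included Cad (-0.31), which starts pyrimidine synthesis. Slc7a5, the leucine transporter LAT1, was not among these 17 genes and had 19938 and 14467 counts (-0.46). Scaling by DESeq2's size factors or by total counts moved no list median by more than 0.011.

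Interferon-stimulated genes, measured here in cells without added IFN-γ, lay slightly higher under hypoxic conditions. Of 37 measured members 30 were above 0 and 26 had an interval above 0, against 25.6% of all measured genes, with a median of 0.22; none was raised by the 1.5-fold rule. Gbp2, a guanylate-binding protein gene, had 597 and 846 counts (0.51), Isg15, the ubiquitin-like modifier, 1725 and 2214 (0.36), Rsad2, the antiviral enzyme viperin, 2929 and 3869 (0.40), and Irf1, a transcription factor of the pathway, 3770 and 4422 (0.23). Ifit1 and Irf7 had log2 ratios of -0.11 and -0.13. In the 2 libraries with IFN-γ the median of the same list between hypoxia and normoxia was 0.17. Class I antigen presentation had a median of 0.07 over 18 genes and no call, with the immunoproteasome gene Psmb8 (2214 and 3000 counts, 0.44) highest and Psmb10 (4783 and 4007, -0.25) lowest. H2-K1 had 42418 and 46278 counts (0.13) and B2m 18875 and 18402 (-0.03). Outside the lists, the interferon-inducible DNA sensor gene Ifi204 was raised, with 1513 and 2708 counts (0.84).

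**Figure D4:**
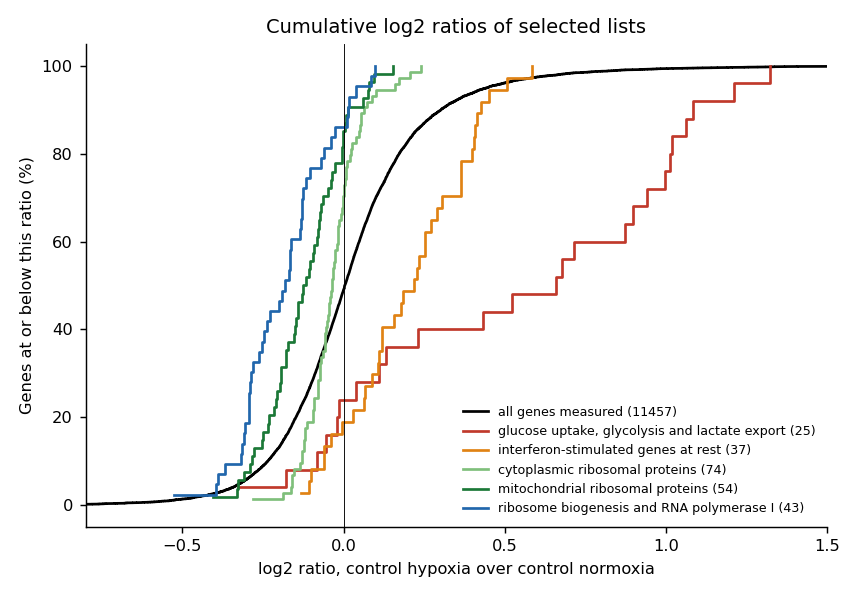
Cumulative share of genes (percent, vertical) at or below each log2 ratio of hypoxia over normoxia without IFN-γ (horizontal) for all 11457 measured genes and 5 lists. The curve of ribosome biogenesis lies to the left of that of all genes (median -0.18 against 0.0037), interferon-stimulated genes lie to the right (0.22), and glycolysis farthest to the right (0.66), with a lower part of its members near 0.

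Of 9 measured checkpoint ligands and related enzymes, Pvr, a ligand of TIGIT, had 2005 and 3181 counts without and 1780 and 3212 with IFN-γ (log2 ratios 0.67 and 0.85). Icosl, the ligand of ICOS, had 124 and 196 (0.66). Both were raised in the control pair, where 2.68% of all measured genes were. In the IFN-γ pair Pvr was raised and Icosl was not. Cd274, which encodes PD-L1, had 447 and 457 counts without IFN-γ (0.03, 95% interval -0.16 to 0.23) and 1658 and 2191 with it (0.40). Cd47 had a log2 ratio of 0.25 and Lgals9 of -0.19.

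Of 37 DNA replication genes none was called (median -0.06, 26 below 0), nor was any of 29 mitosis genes (median 0.03) or 25 DNA repair genes (median -0.0018). Below 0 were 5613 of all 11457 measured genes. Over all measured genes 2.68% were raised and 0.698% lowered, so lists of this size hold few calls at the background share. Cdkn1a, the CDK inhibitor p21, had 3125 and 6174 counts without IFN-γ and 3107 and 5832 with it (log2 ratios 0.98 and 0.91). Trp53inp1, a p53-induced gene, had 65 and 144 counts (1.14), while the p53 targets Mdm2, Bax and Ccng1 had log2 ratios of 0.17, 0.10 and 0.04. None of 14 BCL2 family genes, 21 TGF-β pathway genes or 14 Wnt, Notch and stem cell genes was called, with medians of 0.05, 0.01 and -0.09. Sox2 had 1514 and 1694 counts and Tcf7, with the lowest ratio of the last list, 269 and 192 (-0.48).

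The labelled colon cancer identity was checked against 4 marker lists in the control libraries. Of 12 colon epithelial markers 1 passed the minimum, and Cdh1, Krt18, Cdx1, Cdx2 and Cldn7 had no count in either control library, which allows at most 0.0876 CPM; the 12 summed to 3.81 CPM under normoxic and 3.53 under hypoxic conditions. The 12 mesenchymal markers summed to 2707 and 2771 CPM, most of it from Vim (80440 and 81307 counts). Of these 12, 7 passed the minimum, and Thy1 had no count in either control library. Lum (2 and 4 counts), Acta2 (7 and 6), Fap (14 and 14) and Col1a1 (66 and 33) lay under the minimum. Leukocyte markers summed to 9.64 and 10.6 CPM and endothelial ones to 1.93 and 1.97 CPM, with 6 of 12 and 3 of 8 markers at 0. The epithelial markers that define colon were thus at or near 0 in both libraries.

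The libraries with IFN-γ give hypoxia ratios that share no library with the control pair. Of the 307 raised genes 161 were also raised there (52.4%), against 2.84% of all measured genes, and 287 had the same sign (93.5%). Seen from the other side, these 161 were 49.5% of the 325 genes raised in the IFN-γ pair. Among the 69 genes raised at least 2-fold without IFN-γ, 61 were raised at least 1.5-fold with it. The share was 70.4% for raised genes that averaged 200 counts or more (114 of 162) and 32.4% for those below (47 of 145). Of the 80 lowered genes 12 were also lowered (15%), against 0.716% of all measured genes, and 60 had the same sign (75%). For lowered genes the share was 18.2% (4 of 22) with a mean of at least 200 counts and 13.8% (8 of 58) below it. Snora44 was raised without and lowered with IFN-γ, and Mrgpre was lowered without and raised with it.

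**Figure D5:**
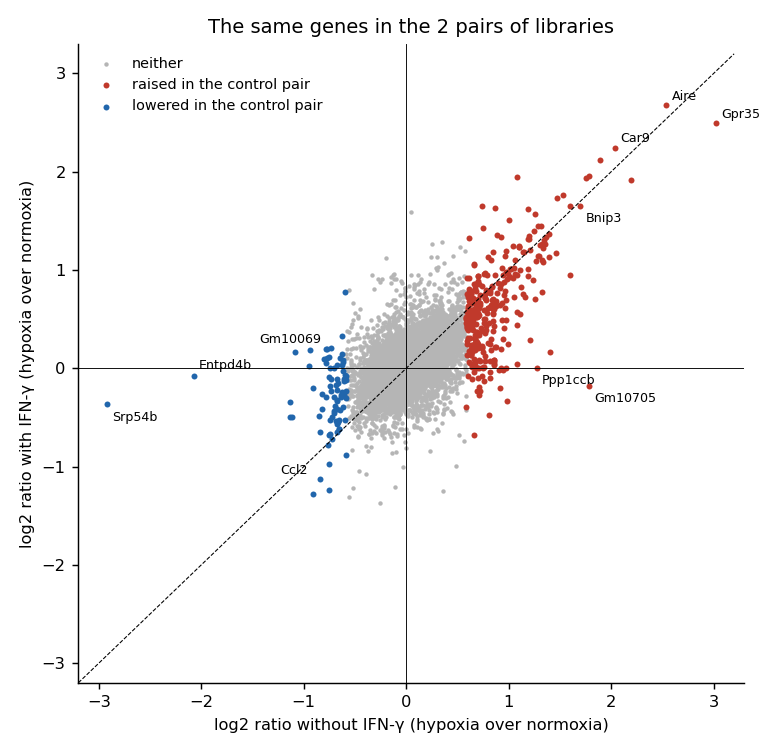
Log2 ratios of hypoxia over normoxia for every measured gene without IFN-γ (horizontal) and with IFN-γ (vertical), with genes raised in the control pair red, genes lowered in it blue, and a dashed line where both ratios are equal. Most red points lie above 0 on the vertical axis (287 of 307) and follow the dashed line at large ratios, as Aire, Car9 and Bnip3 do. Of the 80 blue points 60 lie below 0 on that axis, with a median of -0.27, and Srp54b, Entpd4b and Gm10705 lie far off the line.

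The difference between the 2 hypoxia ratios was taken for 10443 genes with at least 100 counts in all 4 libraries. It lay between -0.40 and 0.36 for 95% of them and had a counting interval that excluded 0 for 34.5%; no difference was tested. The highest was that of Ppp1ccb, which had 803 and 1936 counts without and 1906 and 1910 with IFN-γ, a difference of 1.27 (95% interval 1.12 to 1.42). It shares 99% of its words with Ppp1cc, and their sum had a log2 ratio of 0.12 in the control pair, so the value of Ppp1ccb alone is uncertain. Mlph, a melanosome transport adaptor gene, had 138 and 259 counts without IFN-γ and 126 and 124 with it, a difference of 0.93 (95% interval 0.47 to 1.39). On the low side, Palld, an actin scaffold gene, had 337 and 313 counts without and 196 and 367 with IFN-γ (difference -1.01, 95% interval -1.34 to -0.67), and Hoxa3, a homeobox gene, 125 and 115 without and 104 and 202 with it (difference -1.07, 95% interval -1.57 to -0.57). For Gm10069 the difference was -1.24 (95% interval -1.64 to -0.85) and for Smpdl3b -0.90 (95% interval -1.22 to -0.58). Among raised members of the lists the differences varied. The difference was 0.03 (95% interval -0.05 to 0.10) for Egln1, 0.06 (95% interval -0.02 to 0.13) for Slc2a1, -0.01 (95% interval -0.02 to 0.01) for Ldha, 0.05 (95% interval -0.02 to 0.12) for Bnip3 and -0.21 (95% interval -0.44 to 0.03) for Car9. Other raised members had a higher ratio with IFN-γ. For Aldoc the log2 ratios were 1.08 without and 1.95 with IFN-γ, a difference of -0.87 (95% interval -1.25 to -0.48), and for Bhlhe40 1.0 and 1.51, a difference of -0.51 (95% interval -0.61 to -0.40). Pgam1 had a difference of -0.19 (95% interval -0.23 to -0.16), and Pgf, which had fewer than 100 counts in some libraries, had one of -0.77 (95% interval -1.41 to -0.12).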

How the data were processed

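Poly-A RNA of MC38 cells was made into strand-specific libraries (dUTP method) and sequenced from both ends with 100-base reads on a DNBSEQ instrument, 1 library per condition, as the sample labels describe; total RNA is the term in the paper. The authors aligned reads with HISAT2 (version not given in the sources used here). The submitters' processing notes name featureCounts and mm10. The 4 libraries stand in a single table, whose values the authors deposited as raw counts of reads on each gene; every column carried the name of 1 sample. The rule for reads that match several genes is not given in the sources used here.

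Symbols and coordinates came from the RefSeq tables of GRCm38.p6, which matched 25275 of 27179 gene IDs. The totals were 34302971, 34514248, 34537939 and 34420642 counts (control normoxia, control hypoxia, IFN-γ normoxia, IFN-γ hypoxia), with TMM factors of 0.993 to 1.01 from edgeR 4.0.16 (R 4.3.3). A count of 3, taken as the floor of detection, equals 0.0866 to 0.0876 CPM. Reads carry no molecular identifiers, so intervals and floors cover counting error only. Log2 ratios were computed with 0.5 counts added, and their 95% Clopper-Pearson intervals with SciPy 1.17.1 in Python 3.11.15. The interval of a difference between 2 ratios is a normal one from Poisson error. No test or p-value is given for the comparison itself, since each condition had 1 library; tests entered only as alternatives that take all 4 libraries in 1 additive model.

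Named genes were the 15 raised and 15 lowered genes with the interval bound farthest from no change, the 5 highest and 5 lowest differences between the 2 pairs by the same bound, members of the 38 lists, and the genes at the threshold. Genes outside these, such as Bsg, Apln, Ndufv3 and Ifi204, were chosen after their values were seen. The members, lists and rules were chosen with earlier results of these data known. Where 20% or more of the 31-base words of a gene's transcripts also occur in another gene, it was called uncertain. In the control pair median log2 ratios ran from -0.0074 to 0.016 over bins of transcript length and from -0.028 to 0.044 over bins of GC content (94.7% of measured genes had both). In the IFN-γ pair they rose from -0.050 in the bin of shortest transcripts to 0.047 in that of the longest, and ran from -0.018 to 0.024 over bins of GC content. Alternatives were other scalings, filters, added counts, thresholds and interval conditions, the IFN-γ pair in place of the control pair, and additive fits of oxygen and IFN-γ over the 4 libraries in edgeR and DESeq2 1.42.0; copies were summed as an alternative chosen after seeing the data. The ratios and calls were tested on simulated data with counting error only, which says nothing of the spread between cultures.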

Additional observations from a re-analysis of the deposited data

Results flagged for a closer look

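In 4 of the 10 genes named for the difference between the pairs, the ratios of hypoxia over normoxia went in opposite directions without and with IFN-γ, each with a counting interval that excludes no change. The difference was not tested, because each condition had 1 library. Rps27a-ps3, a ribosomal protein pseudogene, had 436 and 540 counts without and 1064 and 683 with IFN-γ, log2 ratios of 0.31 and -0.64 and a difference of 0.95. The share of its words in other genes was not obtained, so it is unknown whether its counts are uncertain in this way. Zfp982, a zinc finger gene that shares 29.7% of its words with other genes, had 172 and 258 counts without IFN-γ and 226 and 172 with it, log2 ratios of 0.59 and -0.39 and a difference of 0.98. Sqor, which encodes the mitochondrial sulfide quinone oxidoreductase, had 154 and 196 counts without IFN-γ and 205 and 139 with it, log2 ratios of 0.35 and -0.56 and a difference of 0.91. Anxa9, an annexin gene, had 301 and 210 counts without IFN-γ and 200 and 282 with it, log2 ratios of -0.52 and 0.50 and a difference of -1.01.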

How the results depend on the processing

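Each condition had 1 library, so no library could be left out and the spread between cultures is unknown. No paired analysis was possible because the groups compared share fewer than 2 replicate numbers. The 307 raised and 80 lowered genes became 701 and 296 with no filter on low counts, 566 and 215 with edgeR's default filter, and 162 and 22 with a mean of at least 200 counts, which test more or fewer genes by construction. A 2-fold threshold left 69 and 6, and an interval wholly past 1.5-fold left 123 and 10. The additive fits with an adjusted p under 0.05 gave 212 raised and 25 lowered genes in edgeR's quasi-likelihood test, of which 177 and 21 were shared, and 136 and 7 in DESeq2's Wald test, of which 124 and 6 were shared; their spread is the departure from additivity over 4 libraries. Of list members, 66 raised became 30 at 2-fold, and 7 lowered became 0 at 2-fold, 3 with an interval wholly past 1.5-fold, 3 in the IFN-γ libraries, 4 in edgeR and 3 in DESeq2. The share of raised genes also raised with IFN-γ was 69.6% with 2-fold asked of both pairs and 70.4% at a mean of at least 200 counts, and that of lowered genes was 0% at 2-fold. In the IFN-γ libraries Gm10705 (-0.18), Gm10069 (0.16), Smpdl3b (0.10), Gprc5b (0.19), Zfp982 (-0.39), Mlph (-0.022), Rps27a-ps3 (-0.64), Sqor (-0.56), Anxa9 (0.50), Palld (0.90) and Hoxa3 (0.96) had the opposite sign to the control pair, and summed copies turned the sign of Gm10705 (-0.15) and Srp54b (0.27). The cause was not tested. Total counts without TMM kept 294 and 80 of the calls and DESeq2's size factors 302 and 80, and the log2 ratios of all 38 genes named by rank moved by less than their counting intervals under both scalings and with 5 counts added.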

Other observations

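Small nucleolar RNAs, which guide the chemical modification of ribosomal RNA and mostly lie in introns, were mostly below 0: of 31 measured 24 were below 0, against 5613 of all 11457 measured genes, 6 were lowered (Snord83b, Snora70, Snora16a, Snord55, Snord49a and Snord99) and 1, Snora44, was raised, against 0.698% lowered and 2.68% raised of all measured genes. The median log2 ratio of the 31 was -0.20 without and -0.22 with IFN-γ. Snord83b had 83 and 44 counts and Snora70 133 and 83. Mature small nucleolar RNAs carry no poly-A tail, whereas the libraries were poly-A selected. Dancr, a long noncoding RNA and snoRNA host, had 617 and 387 counts without IFN-γ and 535 and 366 with it (log2 ratios -0.67 and -0.55). These genes were chosen after their values were seen.

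Among genes with a symbol under the minimum of 50 counts, 28 had at most 3 counts in one control library and at least 15 in the other. Cd37, a tetraspanin gene of leukocytes, had 0 counts under normoxic and 20 under hypoxic conditions, at least 6.68-fold higher when 3 counts per library are taken as the floor, and 4 and 10 with IFN-γ. Krt19, a simple epithelial keratin, had 2 and 18 counts and 2 and 0 with IFN-γ. Foxj1, the regulator of motile cilia, had 2 and 18 counts and 0 and 8 with IFN-γ. Amy1, an amylase gene, had 16 counts under normoxic and 0 under hypoxic conditions, at least 5.32-fold lower, and 36 and 33 with IFN-γ.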
